A study of Glycyrrhiza uralensis with 48 samples.

Results

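The genes described here are the licorice (Glycyrrhiza uralensis) genes for which the deposited annotation lists 2 or more messenger RNAs. They number 1630 of 34445 annotated genes, or 4.73%, and carry 3660 of the 36475 annotated mRNAs. A plant gene can give several mRNAs when transcription starts or stops at different places, or when the spliceosome joins different exons. The mRNA may then keep an intron, skip an exon or use another donor site (the start of an intron) or acceptor site (its end), and intron retention is the form seen most often in plants. Such changes can alter the encoded protein, or alter the untranslated ends of the mRNA that bear on its stability and translation, and splicing choices in plants are known to respond to salt and water stress.

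RNA was measured in aerial and underground parts of 45-day-old seedlings. The stress groups were salt-drought (both stresses together), salt (75 mM NaCl) and drought (35 to 45% of saturation moisture), and the control received distilled water. Each condition was run without silicate and with 2 mM silicon as potassium silicate, so silicon came together with potassium. The 2 parts and 8 treatments give 16 groups of 3 libraries, 48 in all. All seedlings grew in sterilised desert sand holding no nutrients, per the labels' protocols, with 75 seeds per pot. Whether the libraries of a group were grown in separate pots is not stated by the labels. The p-values therefore reflect only how far these libraries spread, and that spread may be technical. A library of a whole plant part holds many cell types, and fewer cells of a type cannot be told apart from less RNA per cell.

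Values are FPKM per gene (fragments scaled by transcript length and library depth). They sum over all mRNAs of a gene, so nothing below says which mRNA of a gene was made, and how the length of a gene with several mRNAs entered its FPKM is not given in the sources used here. Depth was roughly 16.2 to 35.7 M fragments per library, estimated from the steps between low values. The upper value is the limit of the range searched, so the deepest libraries may hold more. Identity of the parts was checked with 10 underground and 9 aerial marker genes, none of them a gene with several mRNAs, taken by rule from the unstressed libraries with silicate. Underground markers were nearly absent from most aerial libraries, but library 3 of aerial drought held them at 9.34% (median) of the underground level, and library 2 of aerial salt-drought with silicate at 12.7%. Numbers of called genes that rose and fell are given with and without them for aerial drought and for aerial silicate under salt-drought. Other comparisons with aerial parts also use them to estimate the spread. The main counts of those, and counts over several comparisons, are given with them only.

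The genes with several mRNAs lay on 944 of the 4853 scaffolds that hold genes, with at most 10 on a scaffold, 819 on the plus and 811 on the minus strand. Of these genes, 1302 had 2 mRNAs, 266 had 3, 53 had 4, 8 had 5 and 1 had 6. Of the 2030 mRNAs beyond the first of each gene, 1608 had exon lines that were copies of their coding lines. By coordinates, 1790 had exons equal to their coding segments. The untranslated ends of such mRNAs are not described by exons. The mRNAs of a gene were therefore compared by their coding segments. All 36475 coding lengths were multiples of 3.

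By this comparison the genes fell into 4 classes. In 670 genes (41.1%) the coding regions overlapped but differed. The median share of their coding bases that lay in every mRNA was 81.0%, and the median coding length was 1267.5 nt for the longest and 874.5 nt for the shortest mRNA. In 413 genes (25.3%) the mRNAs overlapped on the scaffold while at least 1 pair of them shared no coding base, with medians of 1236 nt for the longest and 369 nt for the shortest coding region. In 384 genes (23.6%) all mRNAs had the same coding sequence; among these, the start of the mRNA differed in 284, its end in 103, and both in 3 that are in each count. In the other 163 genes (10%) at least 1 pair of mRNAs did not overlap at all, and 55 of these genes had 2 mRNAs only, which lie one after the other under 1 gene identifier.

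Within the 670 genes with overlapping coding regions, different ends of the coding region were the commonest difference. The coding start differed in 352 genes and the coding end in 326, and 359 genes differed at these ends only. Splicing differences inside the shared region were found in the other 311. A coding exon was skipped in 147 genes, an alternative donor was used in 146, an alternative acceptor in 119, and a coding intron was retained in 45. Retained introns, the commonest plant form in general, were the least frequent of these 4 kinds as counted here. An intron was counted as retained only where a single coding segment spanned all of it. A retained intron that ends the coding region early would be counted as a different coding end, so this order may reflect the method. Introns retained in untranslated regions could not be counted.

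The map of coding segments shows, for each coding class and each kind of difference, the most highly expressed gene; for the kinds of difference among overlapping coding regions it is the highest gene with that kind alone. Glyur000226s00010848 (Scaffold00226, 197345 to 202367, plus strand) has a pair of mRNAs with the same 1827 nt of coding sequence in 13 segments, and only their starts differ. In Glyur002100s00035986 (Scaffold02100, 12820 to 18153, minus strand) the mRNAs code for 909 and 873 nt and differ by the donor of the first coding exon. In Glyur000034s00002917 (Scaffold00034, 167986 to 173073, minus strand) an acceptor differs, giving 1527 and 1518 nt. Both changes leave the rest of the coding segments in place. Glyur000021s00002735 (Scaffold00021, 392709 to 399571, plus strand) has 19 coding segments in one mRNA and 18 in the other, with 2529 and 2418 nt. Glyur000166s00010568 (Scaffold00166, 58110 to 64179, minus strand) keeps introns in its longer coding region, of 4308 nt against 4188 nt. In the next pair of genes the exons are spliced alike where both mRNAs are coding, and only an end moves. The coding start differs in Glyur001894s00031739 (Scaffold01894, 29162 to 30845, plus strand; 651 and 411 nt), and the coding end in Glyur002219s00033067 (Scaffold02219, 7222 to 11505, minus strand; 546 and 588 nt). Glyur000426s00022725 (Scaffold00426, 101373 to 106998, minus strand) has coding regions of 519 and 423 nt that share no base. Glyur000275s00017042 (Scaffold00275, 33319 to 52143, plus strand) has 4 mRNAs, of which the last-numbered ends before the second begins; its overlapping mRNAs also differ by a retained coding intron and the coding end. The genes from Scaffold02100, Scaffold00166, Scaffold02219 and Scaffold00275 overlap a gene on the opposite strand, and strand handling of the counting was not stated.

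**Figure D1:**
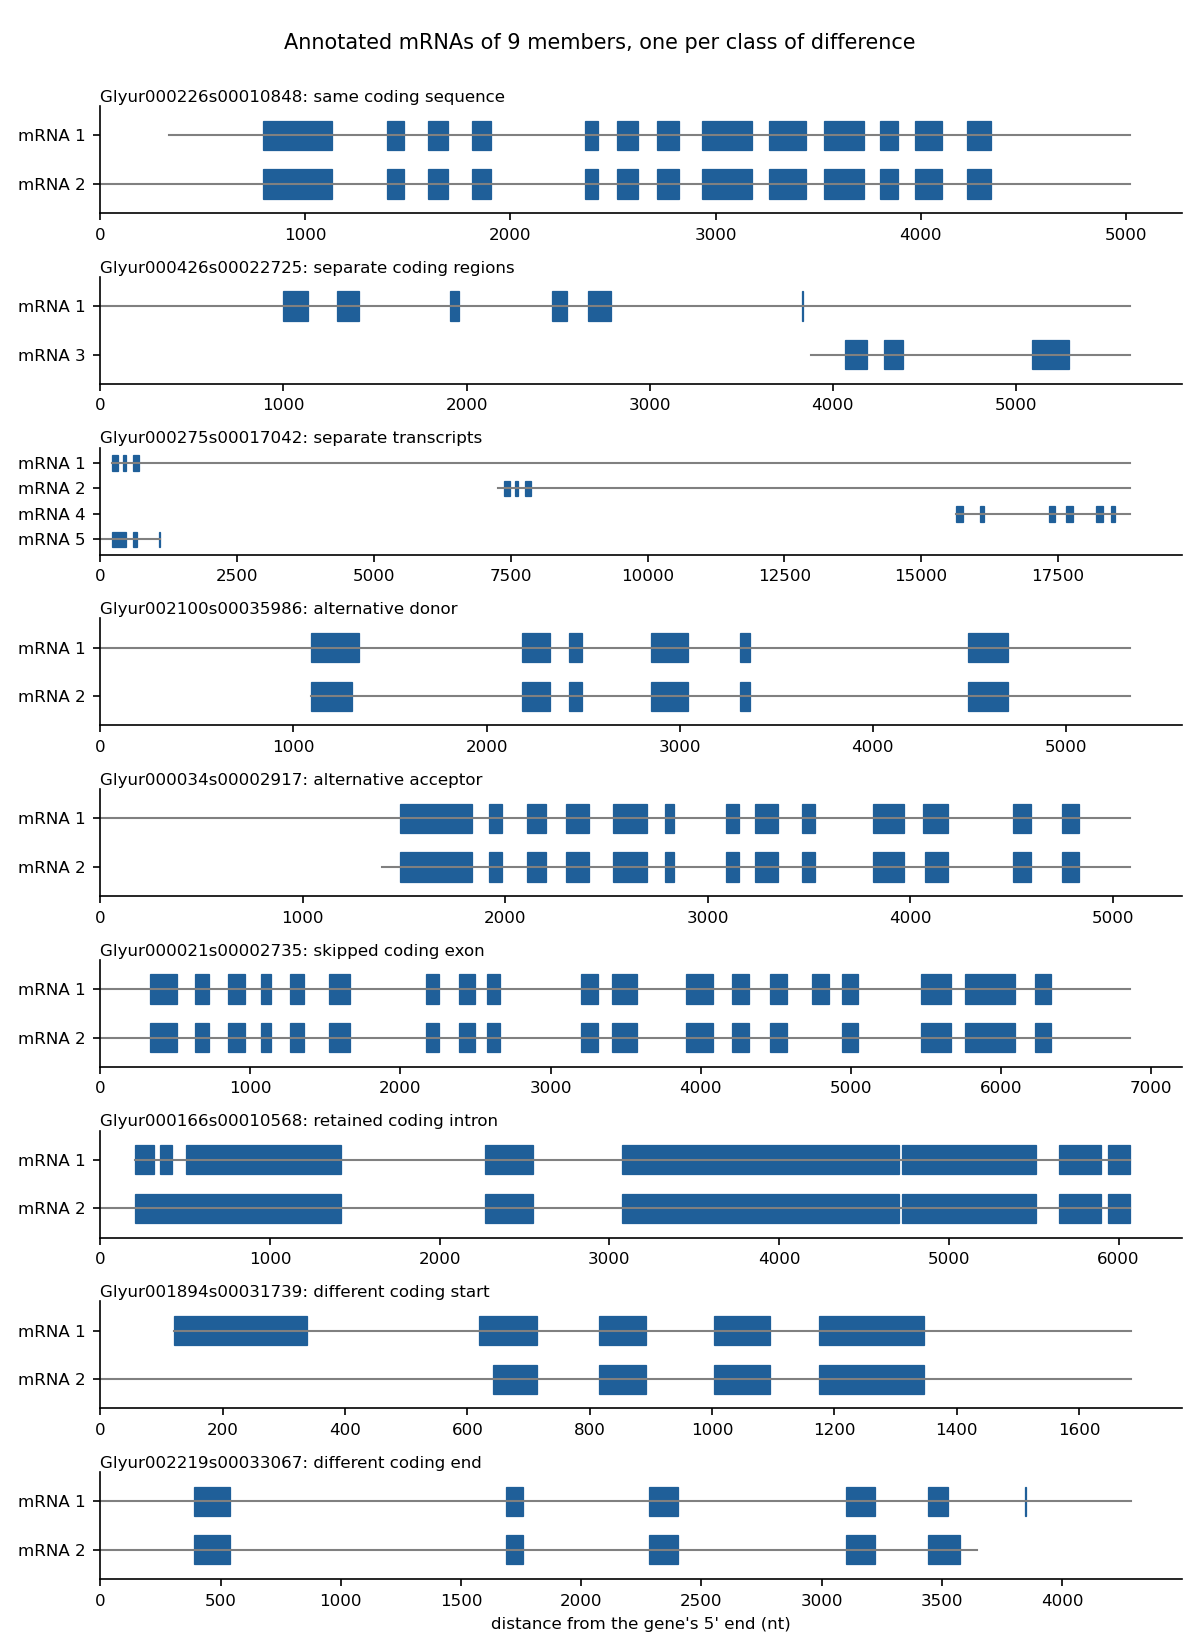
Annotated mRNAs of 9 genes, 1 for each kind of difference; the horizontal axis is the distance in nt from the 5′ end of the gene, thin lines span each mRNA and boxes are its coding segments. Boxes of Glyur000226s00010848 coincide in both mRNAs, while those of Glyur000426s00022725 do not share a position.

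Genes with several mRNAs were longer and had more exons than the 32815 genes with 1 mRNA. Exons of all mRNAs of a gene were merged into exon blocks where they overlapped. Further mRNAs can add blocks and can only add to merged exon length and gene span. Part of the difference is thus built in, and single mRNAs were not compared. The median was 8 blocks in genes with several mRNAs and 3 in genes with 1 mRNA, and 39.3% against 12.8% had 10 or more. None of the 1630 genes had a single block, against 16.4% of genes with 1 mRNA. Median merged exon length was 1876.5 nt against 1011 nt, and median gene span 5377.5 nt against 2523 nt. The share of annotated genes that have several mRNAs was 1.54% at 2 to 4 blocks, 8.38% at 5 to 9, 12.7% at 10 to 19 and 16.3% at 20 or more. An opposite-strand gene overlapped 388 of them (23.8%, against 27.7% of genes with 1 mRNA), and none overlapped a gene on its own strand.

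Genes with several mRNAs were expressed at higher levels in every library. Their median was 12.3 to 15.4 FPKM per library, against 1.40 to 2.64 FPKM for genes with 1 mRNA, and the ranges over the 48 libraries did not overlap. Between 89.3 and 93.2% of them reached 1 FPKM in a library, against 53.0 to 59.6%. In all 48 libraries together, 1310 (80.4%) stayed at or above 1 FPKM, against 41.0%. The median of the mean level over 48 libraries was 14.4 FPKM for genes with 2 mRNAs, just inside the rule, and 2.83 FPKM for genes with 1 mRNA, just outside it. It was 16.2 FPKM with 3 mRNAs and 20.6 FPKM with 4 or more. They made up 6.9996 to 8.07% of the summed FPKM in underground libraries and 8.29 to 9.36% in aerial ones.

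**Figure D2:**
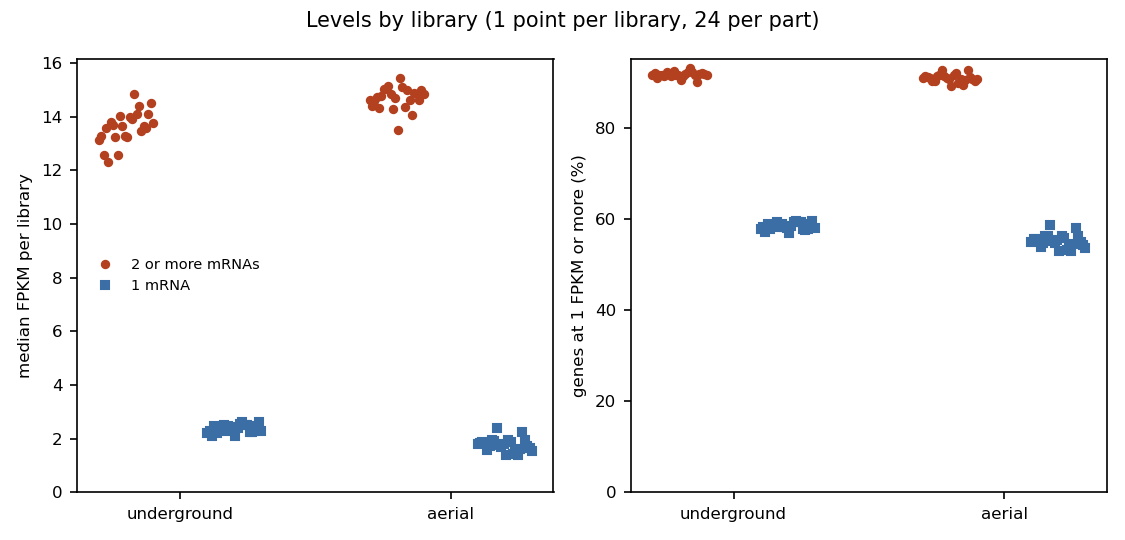
Median FPKM (left) and share of genes at 1 FPKM or more in percent (right) per library, with 1 point per library; circles are genes with several mRNAs, squares genes with 1 mRNA, for underground and aerial libraries. Medians of 12.3 to 15.4 FPKM lie above all medians of genes with 1 mRNA, which reach at most 2.64 FPKM.

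The level went with exon number as well, so the values were set side by side within exon classes. At 5 to 9 blocks the median of the mean level was 13.3 FPKM with several mRNAs and 5.92 FPKM with 1 mRNA, at 10 to 19 blocks 17.8 and 10.3 FPKM, and at 20 or more 17.3 and 12.1 FPKM. At 2 to 4 blocks the medians were 12.8 and 0.993 FPKM. Seen the other way, genes with several mRNAs made up 0.788% of annotated genes under 1 FPKM on average, 3.19% at 1 to 5 FPKM, 7.89% at 5 to 20, 9.89% at 20 to 100 and 9.12% at 100 FPKM or more. The annotation names maker as the source of its gene models, and the data behind their mRNAs are not given in the sources used here; whether mRNAs were found more readily at high levels was not tested. By coding class, the median level was 19.8 FPKM where all mRNAs had the same coding sequence, 14.8 FPKM with overlapping coding regions, 13.7 FPKM with separate coding regions and 9.37 FPKM with mRNAs that do not overlap.

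A small number of these genes had no expression value above 0. Beside 2668 of the 32815 genes with 1 mRNA, 13 of these genes were listed at 0 in all 48 libraries. Of the 13, 10 had mRNAs that do not overlap. In total 50 did not reach 1 FPKM in 3 libraries, 28 of them in that class, and were not tested between groups. Glyur001734s00030842, singled out after its values were seen, was listed at 0 in 7 libraries, 4 aerial and 3 underground, and lay between 20.4 and 83.7 FPKM in the other 41. Such zeros may be failed estimates.

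The highest mean level was that of Glyur000314s00018014 (Scaffold00314, 67704 to 77080, plus strand), whose mRNAs differ by a skipped coding exon and the coding start. It had 97.9 to 786 FPKM in the 24 underground libraries (median 274 FPKM) and 2184 to 7747 FPKM in the 24 aerial ones (median 4556 FPKM), with no overlap. Glyur000226s00010848 came next and had the opposite order, with 1088 to 1857 FPKM underground and 245 to 581 FPKM in aerial parts. Glyur000519s00019093 (Scaffold00519, 38848 to 43894, plus strand) has 3 mRNAs with the same coding sequence, and had 1045 to 2273 FPKM underground and 43.1 to 368 FPKM in aerial parts. Thus each of these 3 genes separated the parts completely, but how many of all genes do so was not counted. Differences between the parts are common at high levels. Among genes averaging 100 FPKM or more, the limma test of unstressed parts given below called 80.9% with 1 mRNA and 84.4% with several.

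Genes with the most mRNAs were taken in order of their number and then of mean FPKM, since 8 genes tie at 5. The gene with 6 was Glyur000185s00016457 (Scaffold00185, 79358 to 133210, minus strand), expressed at 0.691 to 12.7 FPKM; it overlaps an opposite-strand gene. With 5 mRNAs, Glyur000026s00001866 (Scaffold00026, 87911 to 97318, plus strand, also overlapped on the opposite strand) had 344 to 954 FPKM underground and 7.82 to 67.8 FPKM in aerial parts, whereas Glyur000234s00015084 (Scaffold00234, 129593 to 134699, minus strand) stayed between 60.1 and 92.0 FPKM in all libraries. Among genes of at least 5 FPKM on average, the least variable were Glyur000078s00005363 (Scaffold00078, 7014 to 14052, minus strand, overlapped on the opposite strand), at 6.34 to 8.67 FPKM, and Glyur000248s00011313 (Scaffold00248, 99712 to 104844, minus strand), at 11.3 to 17.02 FPKM. The other 6 genes with 5 mRNAs are not described singly.

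Comparisons between groups were made with limma on log2(FPKM + 1), and genes with a p under 0.05 after Benjamini-Hochberg adjustment over all genes tested are given as called. Changes on this scale understate those of genes at low FPKM. Genes named for a pairwise comparison were chosen among called genes whose groups do not overlap. Their separation is therefore set by that choice and is no further evidence. Where rates are compared, the rate of all genes tested stands beside that of the 1580 (both parts), 1537 (aerial) or 1554 (underground) tested genes with several mRNAs. Across the 9 comparisons within a part, 865 of 1576 tested genes with several mRNAs were called at least once (54.9%), against 47.9% of all genes tested and 49.7% of genes with 1 mRNA. This count was not split by level. In aerial salt-drought, 4.35% with several mRNAs and 11.4% with 1 mRNA were called under 1 FPKM on average, and 22.2% and 19.9% at 1 to 5 FPKM. At 5 to 20 FPKM the shares were 31.5% and 31.8%, at 20 to 100 FPKM 39.3% and 40.4%. At 100 FPKM or more they were 40% and 42.2%. Calls of at least 1 log2 unit made up a smaller share of genes with several mRNAs than of all genes in each of the 12 comparisons made. In aerial salt-drought, for instance, 76 genes (4.95%) were called with at least 1 log2 unit, against 8.39% of all genes tested. By exon number (exon blocks), this share was 6.075% against 10.44% of genes with 1 mRNA at 2 to 4 blocks. It was 5.57% against 6.58% at 5 to 9 blocks and 3.11% against 4.44% at 10 to 19. At 20 or more blocks the order turned, with 7.34% against 2.15%. Genes with a single block, all with 1 mRNA, had 14.3%.

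**Figure D3:**
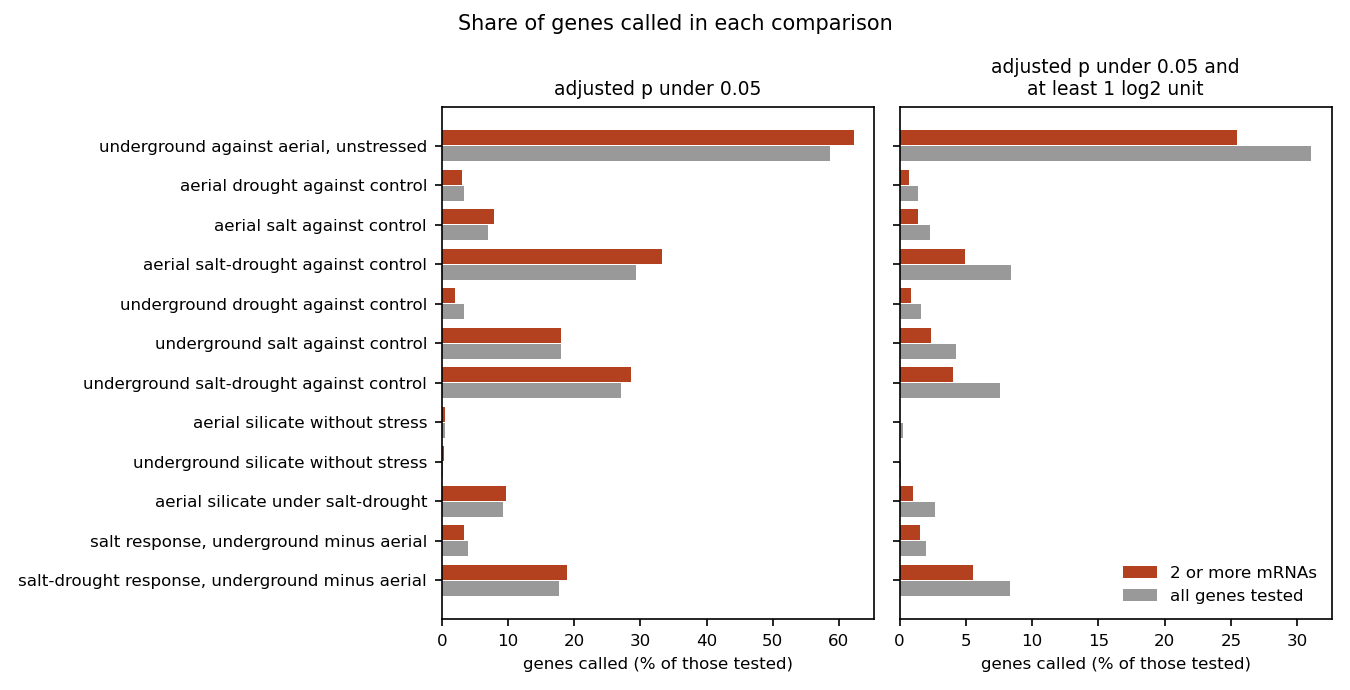
Share of tested genes called in each comparison, in percent, without (left) and with (right) a minimum change of 1 log2 unit; red bars are genes with several mRNAs, grey bars all genes tested. In the left panel the red bar is the longer one in aerial salt-drought (33.3% against 29.3%) and the shorter one in underground drought (2.06% against 3.44%). In the right panel the red bar is the shorter one in every comparison, for example 4.95% against 8.39% in aerial salt-drought.

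Underground and aerial parts of unstressed seedlings differed in most of these genes: 983 of 1580 were called (62.2%), against 58.7% of all genes tested. They split evenly, 481 higher and 502 lower underground (30.4% and 31.8%, against 31.1% and 27.5% of all genes). Glyur000462s00025056 (Scaffold00462, 119630 to 135384, plus strand, 3 mRNAs with overlapping coding regions) had 304, 215 and 250 FPKM in underground libraries and 1.19, 5.68 and 3.27 FPKM in aerial ones. Its log2 change was 6.003 (SE 0.70, adjusted p = 3.65e-09), the largest rise. Glyur000768s00019899 (Scaffold00768, 107212 to 112565, plus strand, 3 mRNAs, overlapping an opposite-strand gene) had 97.2, 85.7 and 97.9 FPKM underground and 1.04, 0.297 and 2.01 FPKM in aerial parts (log2 change 5.56, SE 0.49, adjusted p = 5.70e-12). The largest fall was in Glyur000426s00022725, the gene with separate coding regions on the map. It had 6.70, 4.68 and 1.61 FPKM underground and 542, 807 and 891 FPKM in aerial parts, a log2 change of -7.24 (SE 0.74, adjusted p = 1.83e-10). Glyur000055s00004597 (Scaffold00055, 454530 to 462523, minus strand, 19 exon blocks) had 2.86, 1.16 and 0.989 FPKM underground and 281, 279 and 266 FPKM in aerial parts, a log2 change of -6.76 (SE 0.41, adjusted p = 6.56e-16). In all 4 genes the 3 libraries of one part lay far outside those of the other.

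The share called between the parts varied little with the kind of difference between mRNAs. It was 64.0% where the coding sequence is the same, 61.7% with overlapping and 61.9% with separate coding regions, and 60.7% where mRNAs do not overlap. It varied more with level, from 38.5% of genes averaging under 1 FPKM to 84.4% of those at 100 FPKM or more, and genes with 1 mRNA had a like range, 36.7% and 80.9%. In the classes between these, genes with several mRNAs had the lower shares. They were 47.7% against 55.2% at 1 to 5 FPKM, 60.0% against 65.2% at 5 to 20 and 68.8% against 71.2% at 20 to 100. The difference between parts was at least 1 log2 unit and called in 402 genes (25.4%, against 31.1% of all genes tested).

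Drought alone changed few of these genes in aerial parts: 46 of 1537 were called (29 higher and 17 lower), beside 3.33% of all genes tested (1.66% higher and 1.66% lower). Changes of at least 1 log2 unit were called in 11 (0.716%, against 1.43%). When libraries were rescaled to share 1 median ratio to their geometric mean, the split was 16 higher and 23 lower. Glyur001696s00038371 (Scaffold01696, 33393 to 36086, plus strand) had 26.2, 29.4 and 26.9 FPKM in drought libraries and 15.6, 5.21 and 5.18 FPKM in controls (log2 change 1.73, SE 0.43, adjusted p = 0.0341). The drought values are close together and control library 1 is the nearest to them. Glyur004161s00039872 (Scaffold04161, 3 to 1869, plus strand, overlapped on the opposite strand) had 3.14, 4.98 and 7.90 FPKM in drought and 0.839, 0.404 and 1.29 FPKM in controls (log2 change 1.74, SE 0.44, adjusted p = 0.0354). Glyur000198s00008725 (Scaffold00198, 22314 to 25541, minus strand) had 2.11, 8.41 and 11.05 FPKM in drought and 30.7, 27.9 and 37.8 FPKM in controls, and fell by 2.22 on the log2 scale (SE 0.47, adjusted p = 0.0129). Glyur000121s00009710 (Scaffold00121, 167179 to 170297, minus strand, overlapped on the opposite strand) had 3.96, 6.26 and 3.64 FPKM in drought and 14.3, 15.2 and 13.5 FPKM in controls (log2 change -1.48, SE 0.33, adjusted p = 0.0185). Drought and control values do not overlap in any of the 4, as their selection required. Each lost its call without at least 1 of the 6 libraries. Of 12 alternative settings, the calls were lost in 7, 9, 3 and 4, in the order given. Without the 2 aerial libraries with most underground RNA, all of these calls but that of Glyur000198s00008725 were lost. Glyur004161s00039872 had a median of 23.9 FPKM in underground and 1.07 FPKM in aerial libraries, and its highest drought value was in library 3. The part of underground RNA in its rise was not tested. Without control library 1, 2 or 3 the count was 28, 18 and 22, and without drought library 1 or 2 it was 17 and 27; with only these 2 groups in the fit it was 8. The 10 underground markers summed to 44.9 to 5306 FPKM in the drought libraries and to 20.4 to 27.2 FPKM in controls; without library 3 and the other library rich in underground RNA, 18 genes rose and 19 fell.

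Salt changed 121 of 1537 genes with several mRNAs in aerial parts, 72 higher and 49 lower, beside 6.96% of all genes tested (2.99% higher and 3.97% lower). Changes of at least 1 log2 unit were called in 22 (1.43%, against 2.27%). Glyur000189s00009621 (Scaffold00189, 211857 to 219439, plus strand), which has 4 mRNAs with separate coding regions, had 10.3, 12.9 and 12.5 FPKM in salt libraries and 2.64, 2.78 and 3.31 FPKM in controls. It rose by 1.72 on the log2 scale (SE 0.14, adjusted p = 5.28e-07) and kept its call in all 12 alternative settings. Glyur000389s00028191 (Scaffold00389, 150582 to 153521, plus strand, mRNAs with the same coding sequence) had 32.7, 80.4 and 54.6 FPKM in salt and 12.4, 21.3 and 16.8 FPKM in controls (log2 change 1.61, SE 0.38, adjusted p = 0.0150). Its salt values are widely spread, and the call was lost without control library 1 or salt library 2 and with only these 2 groups in the fit. The 2 largest falls were in Glyur001112s00036226 (Scaffold01112, 28010 to 31710, plus strand, separate coding regions) and Glyur000093s00009391 (Scaffold00093, 224751 to 226561, minus strand, different coding starts). Glyur001112s00036226 had 9.65, 4.84 and 6.95 FPKM in salt and 29.8, 39.3 and 34.3 FPKM in controls, a log2 change of -2.16 (SE 0.32, adjusted p = 0.000431). Glyur000093s00009391 had 10.4, 14.2 and 14.6 FPKM in salt and 43.1, 61.0 and 68.6 FPKM in controls, a log2 change of -2.04 (SE 0.30, adjusted p = 0.000358). Each salt library of both genes was below each control, as their selection required. The count of called genes was 50 without control library 1, 74 without control library 2, 80 without salt library 1 and 14 with only these 2 groups in the fit.

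Salt and drought together changed 512 of 1537 genes in aerial parts (33.3%), beside 29.3% of all genes tested. Of these, 274 rose (17.8%) and 238 fell (15.5%), against 13.0% and 16.2% of all genes. Glyur004316s00042459 (Scaffold04316, 5208 to 12838, minus strand) had 40.5, 110.4 and 116 FPKM in salt-drought libraries and 12.8, 11.8 and 12.9 FPKM in controls (log2 change 2.59, SE 0.37, adjusted p = 6.13e-05). Glyur000035s00004958 (Scaffold00035, 27730 to 30422, plus strand, overlapped on the opposite strand) had 6.76, 8.78 and 11.2 FPKM in salt-drought and 0.5997, 0.613 and 0.875 FPKM in controls (log2 change 2.53, SE 0.30, adjusted p = 1.01e-05). Both were far above their controls in each of the 3 libraries. The genes with the largest falls were the same as in salt. Glyur001112s00036226 had 4.21, 6.66 and 3.70 FPKM in salt-drought (log2 change -2.62, SE 0.32, adjusted p = 1.35e-05) and Glyur000093s00009391 had 8.67, 8.65 and 8.88 FPKM (-2.56, SE 0.30, adjusted p = 8.20e-06), against the same controls. These 4 calls held in all alternative settings. Without salt-drought library 3 the count of called genes was 336. Underground markers summed to 4.16 to 16.5 FPKM in the salt-drought libraries and to 20.4 to 27.2 FPKM in controls.

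The counts in each direction in aerial salt-drought were also taken by exon number. Among genes with several mRNAs of 2 to 4 exon blocks 47 rose and 22 fell, at 5 to 9 blocks 142 rose and 86 fell, at 10 to 19 blocks 72 rose and 90 fell, and at 20 or more 13 rose and 40 fell. After rescaling of the libraries the counts at 10 to 19 blocks were 86 higher and 82 lower, which turns the order there, while at 20 or more they were 15 and 37. Beside these, 301 genes with 1 mRNA rose and 647 fell at a single block, 1092 and 1151 at 2 to 4, 943 and 876 at 5 to 9, 325 and 614 at 10 to 19, and 13 and 171 at 20 or more. Falls thus outnumbered rises at 20 or more blocks in both kinds of gene. The difference between the kinds was not tested. After rescaling, 1245 genes with 1 mRNA rose and 1095 fell at 2 to 4 blocks. Underground, 20 rose and 12 fell at 20 or more blocks in salt-drought; after rescaling these were 13 and 17. Merged exon length moves with exon number, with medians of 1280.5 nt at 2 to 4 blocks and 3674 nt at 20 or more, and its part in the split was not tested.

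Drought changed 32 of 1554 genes underground (2.06%), 14 higher and 18 lower, beside 3.44% of all genes tested (1.21% higher and 2.23% lower). Changes of at least 1 log2 unit were called in 13 (0.837%, against 1.63%). Glyur000389s00028191, one of the genes that rose in aerial salt, had 149, 135 and 119 FPKM in drought libraries and 57.9, 60.9 and 26.4 FPKM in controls (log2 change 1.54, SE 0.37, adjusted p = 0.0227). Glyur000056s00004115 (Scaffold00056, 103066 to 104906, minus strand) had 31.4, 26.6 and 29.8 FPKM in drought and 13.9, 12.7 and 6.55 FPKM in controls (log2 change 1.38, SE 0.32, adjusted p = 0.0171). In both genes control library 3 was the lowest. Both calls were lost without it and without drought library 1, the first also without drought library 2 or with only these 2 groups in the fit, and the second also without drought library 3. Glyur000165s00008476 (Scaffold00165, 23386 to 29196, plus strand, overlapped on the opposite strand) had 6.04, 4.95 and 4.68 FPKM in drought and 24.3, 40.2 and 19.99 FPKM in controls (log2 change -2.18, SE 0.33, adjusted p = 0.000586). Glyur004970s00043705 (Scaffold04970, 4241 to 10243, minus strand, with a skipped coding exon) had 1.99, 0.899 and 2.33 FPKM in drought and 8.55, 11.1 and 9.27 FPKM in controls (log2 change -1.99, SE 0.27, adjusted p = 0.000152). Both falls held in all 11 alternative settings. The count of called genes was 21 without drought library 2. The 9 aerial markers summed to 47.8 to 51.1 FPKM in the drought libraries and to 2.92 to 15.2 FPKM in controls, with 0 and 5 markers at 0 in at least 1 library; their part in these calls was not tested.

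Salt changed 279 of 1554 genes underground (18.0%), beside 18.0% of all genes tested. Of these 177 rose and 102 fell (11.4% and 6.56%, against 9.64% and 8.35% of all genes), 37 genes were called with at least 1 log2 unit (2.38%, against 4.26%), and after rescaling 145 rose and 134 fell. Glyur000389s00028191 rose most, with 269, 385 and 304 FPKM in salt libraries and 57.9, 60.9 and 26.4 FPKM in controls (log2 change 2.77, SE 0.37, adjusted p = 5.85e-05). Glyur000334s00019204 (Scaffold00334, 180321 to 184128, minus strand, separate coding regions) had 234, 192 and 175 FPKM in salt and 49.0, 79.7 and 22.5 FPKM in controls (log2 change 2.13, SE 0.43, adjusted p = 0.00225). Salt and control libraries of these genes do not overlap, which their selection required. Glyur000165s00008476 had 7.43, 5.04 and 2.22 FPKM in salt and 24.3, 40.2 and 19.99 FPKM in controls (log2 change -2.35, SE 0.33, adjusted p = 9.69e-05). Glyur001112s00036226 had 17.1, 21.0 and 18.3 FPKM in salt and 76.9, 100.8 and 94.1 FPKM in controls (log2 change -2.20, SE 0.25, adjusted p = 7.67e-06). These 4 calls held in all 11 settings, but the count of called genes was 152 without control library 3 and 88 with only these 2 groups in the fit. Aerial markers summed to 6.94 to 81.3 FPKM in the salt libraries and to 2.92 to 15.2 FPKM in controls.

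Salt and drought together changed 444 of 1554 genes underground (28.6%), beside 27.0% of all genes tested, and 320 rose while 124 fell (20.6% and 7.98%, against 17.1% and 9.95% of all genes). Changes of at least 1 log2 unit were called in 63 (4.05%, against 7.57%). The median log2 change over all genes tested was 0.109 here, and after rescaling, which brought it to 0.0136, 210 genes rose and 174 fell. Glyur000879s00025352 (Scaffold00879, 49341 to 52945, plus strand, whose mRNAs differ by an acceptor) had 62.8, 87.7 and 73.1 FPKM in salt-drought libraries and 6.75, 20.04 and 9.77 FPKM in controls (log2 change 2.63, SE 0.44, adjusted p = 0.000252). Glyur001019s00033955 (Scaffold01019, 90907 to 94596, plus strand, overlapped on the opposite strand) had 27.4, 28.3 and 41.3 FPKM in salt-drought and 3.501, 4.13 and 14.0 FPKM in controls (log2 change 2.22, SE 0.59, adjusted p = 0.00887). Among its controls, library 3 is the nearest to the salt-drought values. Glyur001112s00036226 fell most, with 8.28, 8.61 and 11.3 FPKM in salt-drought and 76.9, 100.8 and 94.1 FPKM in controls, a log2 change of -3.14 (SE 0.25, adjusted p = 6.82e-08). Glyur000165s00008476 had 3.62, 6.75 and 4.43 FPKM in salt-drought, against the controls given above (log2 change -2.27, SE 0.33, adjusted p = 7.22e-05). All 9 salt, drought and salt-drought libraries of this gene were below its 3 underground controls, which its selection in each of these comparisons required. The 9 aerial markers summed to 9.62 to 205 FPKM in the salt-drought libraries, and to 2.92 to 15.2 FPKM in controls, with 1 and 5 markers at 0 in at least 1 library; their part in these counts was not tested.

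Several of the named genes changed under more than 1 stress. Within a part, all stress comparisons use the same 3 control libraries, so repeated changes of a gene are not independent. Glyur001112s00036226 averaged 20.6 ± 4.01 FPKM in aerial drought, 7.14 ± 2.41 in salt and 4.86 ± 1.58 in salt-drought, against 34.5 ± 4.76 FPKM in aerial controls (SD, n = 3 each). Underground it averaged 35.6 ± 10.9 FPKM in drought, 18.8 ± 1.97 in salt and 9.41 ± 1.68 in salt-drought, against 90.6 ± 12.3 FPKM in controls. The aerial drought value missed the test (adjusted p = 0.233), and the underground one passed it (log2 change -1.36, SE 0.25, adjusted p = 0.00265). Glyur000093s00009391 also fell in all 3 underground stresses, with log2 changes of -1.82, -1.69 and -2.16 in drought, salt and salt-drought (adjusted p = 0.00832, 0.00451 and 0.000400). Glyur000389s00028191 rose in salt-drought in both parts, with a log2 change of 1.92 in underground and 1.95 in aerial libraries (adjusted p = 0.000885 and 0.000951). Its underground level was highest in salt, at 319 ± 59.5 FPKM, and 183 ± 67.8 FPKM in salt-drought.

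**Figure D4:**
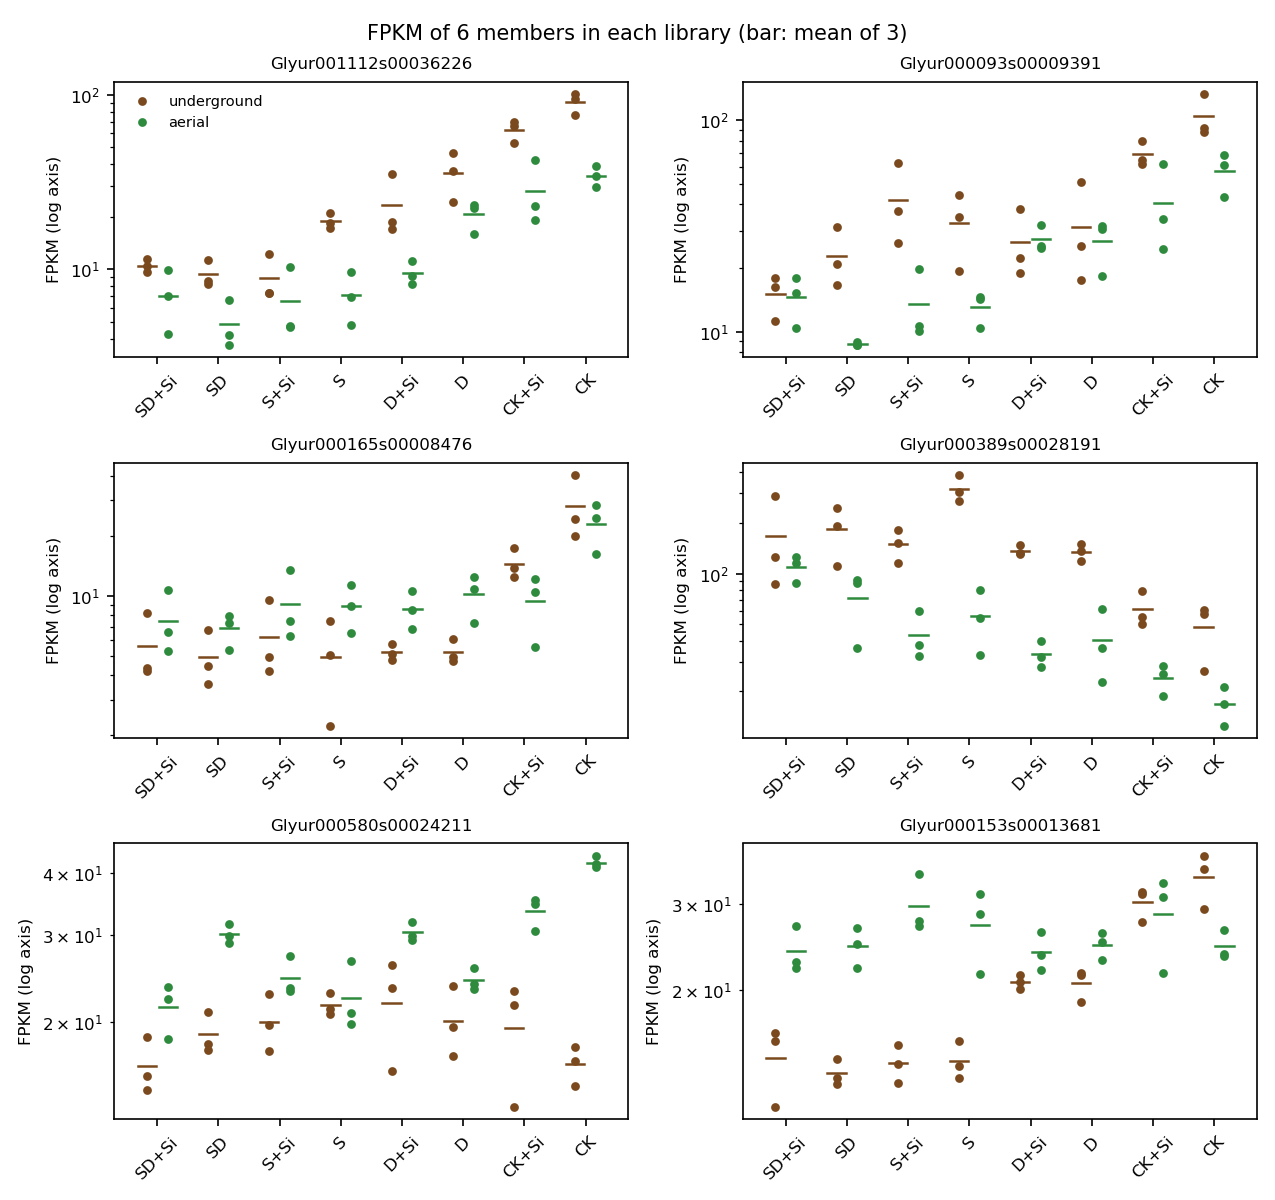
FPKM of 6 genes with several mRNAs in each library on log axes, for underground (brown) and aerial (green) parts; points are libraries, bars means of 3, and CK, D, S, SD and +Si stand for control, drought, salt, salt-drought and added silicate. Glyur001112s00036226 averages 9.41 FPKM in underground salt-drought and 90.6 FPKM in underground controls.

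The same stress called different numbers of genes in both parts. Of 1515 genes with several mRNAs tested in both, 102 rose and 48 fell in salt-drought in each part. The 102 are 37.6% of the aerial and 32% of the underground rises, and the 48 are 20.4% of the aerial and 39.7% of the underground falls. Of 21769 genes of all kinds tested in both parts, 964 rose and 1047 fell in each, or 33.1% of the aerial and 24.7% of the underground rises and 28.7% and 45.7% of the falls. After rescaling, 77 genes with several mRNAs rose and 61 fell in both parts. In opposite directions, 3 were higher in aerial and lower in underground parts, and 21 were lower in aerial and higher in underground parts (62 and 290 of all genes); after rescaling these were 8 and 12. In salt 23 rose and 18 fell in both parts (246 and 387 of all genes), and in drought 4 rose and 2 fell (43 and 122 of all genes).

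**Figure D5:**
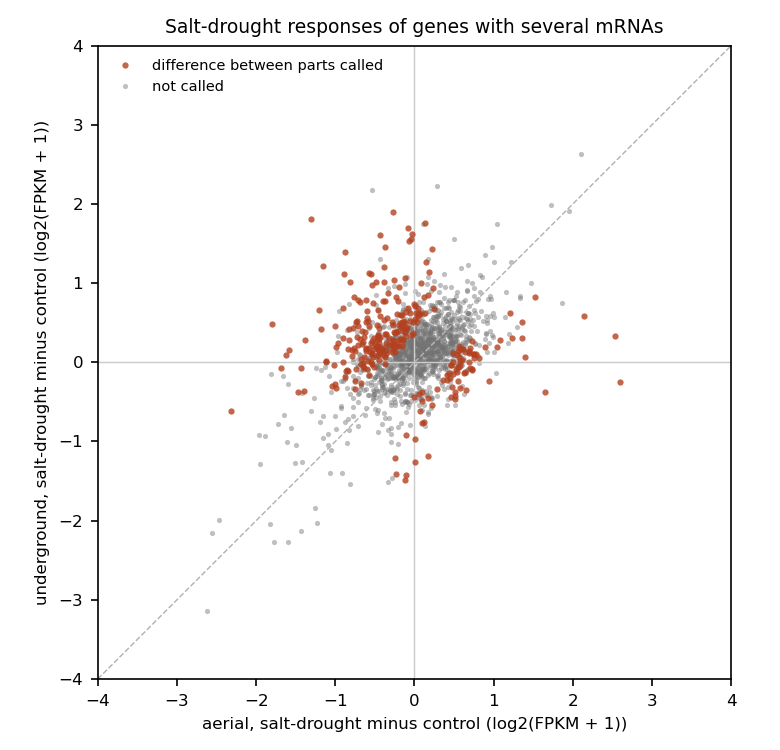
Change with salt-drought on the log2(FPKM + 1) scale in underground parts (vertical) against aerial parts (horizontal) for 1515 genes with several mRNAs; points are genes, the dashed line marks equal change, and red points are the 289 whose responses differed between parts in the test of the difference. Over all 1580 genes tested the underground response was the higher in 216 called genes and the lower in 83.

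The difference between the parts' responses was tested itself, as an interaction over all 48 libraries. In salt-drought it was called in 299 of 1580 genes (18.9%), beside 17.7% of all genes tested. The underground response was the higher in 216 and the lower in 83 (13.7% and 5.25%, against 12.8% and 4.85%), and 88 differed by at least 1 log2 unit (5.57%, against 8.36%). After rescaling, which brought the median over all genes to 0.0279 in place of 0.142, the split was 161 and 154, so the excess of higher underground responses depends on the scaling. The count was 193 without aerial salt-drought library 3. Glyur001820s00032860 (Scaffold01820, 37245 to 40383, plus strand, overlapped on the opposite strand) had 17.5, 18.1 and 17.8 FPKM in underground salt-drought and 9.85, 10.3 and 12.0 FPKM in underground controls. In aerial parts it had 7.38, 5.35 and 6.34 FPKM in salt-drought and 12.1, 12.96 and 12.9 FPKM in controls. It rose underground and fell in aerial parts, and the difference of the changes was 1.58 (SE 0.16, adjusted p = 8.62e-08). Glyur000162s00009925 (Scaffold00162, 216746 to 221141, plus strand, 4 mRNAs, overlapped on the opposite strand) had 13.1, 12.9 and 15.8 FPKM in underground salt-drought and 23.7, 16.1 and 15.9 FPKM in underground controls. In aerial parts it had 18.6, 25.5 and 30.5 FPKM in salt-drought and 6.39, 7.51 and 7.503 FPKM in controls, and the difference was -2.02 (SE 0.26, adjusted p = 4.67e-06). Its aerial groups lie far apart, and its underground groups nearly touch.

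In salt the difference was called in 53 of 1580 genes, 35 with the higher and 18 with the lower response underground, beside 4.03% of all genes tested (2.38% higher and 1.65% lower). Of these 24 differed by at least 1 log2 unit (1.52%, against 2.02%). After rescaling the split was 30 and 32. Glyur000580s00024211 (Scaffold00580, 108058 to 116095, plus strand, different coding starts) had 22.9, 21.3 and 20.7 FPKM in underground salt and 14.8, 16.7 and 17.8 FPKM in underground controls. In aerial parts it fell, with 19.8, 26.5 and 20.8 FPKM in salt and 43.3, 41.1 and 41.6 FPKM in controls, and the difference was 1.27 (SE 0.21, adjusted p = 0.000454). Glyur000153s00013681 (Scaffold00153, 42715 to 47067, minus strand, 3 mRNAs with the same coding sequence) went the other way. It fell underground, with 13.2, 15.7 and 14.0 FPKM in salt and 29.3, 37.5 and 35.3 FPKM in controls. In aerial parts it had 31.4, 28.6 and 21.6 FPKM in salt and 23.5, 26.5 and 23.7 FPKM in controls, and the difference was -1.32 (SE 0.19, adjusted p = 5.98e-05). The calls of these 4 genes held in all 18 alternative settings. The count in salt was 32 without aerial control library 1, 29 without aerial control library 2, 20 without aerial salt library 1, 22 without underground control library 3 and 11 with only these 4 groups in the fit.

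Silicate without stress changed 8 of 1537 genes with several mRNAs in aerial parts, 6 higher and 2 lower, beside 0.445% of all genes tested (0.248% higher and 0.197% lower); 1 changed by at least 1 log2 unit (0.0651%, against 0.261%). Glyur000088s00007712 (Scaffold00088, 129699 to 130669, minus strand) had 207, 190.4 and 283 FPKM with silicate and 90.1, 68.7 and 136 FPKM in controls (log2 change 1.23, SE 0.22, adjusted p = 0.0162). Glyur000443s00016857 (Scaffold00443, 82903 to 100593, plus strand, overlapped on the opposite strand) had 80.4, 78.4 and 53.9 FPKM with silicate and 31.7, 45.2 and 35.8 FPKM in controls (log2 change 0.89, SE 0.18, adjusted p = 0.0284). In both genes all libraries with silicate were above all controls, as their selection required. Glyur000635s00022459 (Scaffold00635, 111724 to 131666, minus strand, mRNAs that do not overlap) had 16.6, 11.2 and 19.8 FPKM with silicate and 27.3, 37.3 and 30.6 FPKM in controls (log2 change -0.98, SE 0.17, adjusted p = 0.0121). Glyur000027s00001594 (Scaffold00027, 509253 to 512514, plus strand) had 44.6, 43.6 and 40.2 FPKM with silicate and 85.3, 81.5 and 64.3 FPKM in controls (log2 change -0.82, SE 0.15, adjusted p = 0.0162). The last pair did not overlap their controls either, again by selection. Each of the 4 calls was lost without at least 2 of the 6 libraries. Leaving out control library 1 or 2 left 3 or 1 calls, and leaving out silicate library 1 or 2 left 2 or 0, where 125 genes were at an unadjusted limma p under 0.05. With only these 2 groups in the fit none was called (148 at an unadjusted limma p under 0.05).

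Underground, silicate without stress changed 5 of 1554 genes, 2 higher and 3 lower, beside 0.241% of all genes tested (0.163% higher and 0.0776% lower); 1 changed by at least 1 log2 unit (0.0644%, against 0.118%). Glyur000635s00022459 fell here too, with 12.6, 17.6 and 10.7 FPKM with silicate and 26.2, 30.8 and 23.5 FPKM in controls (log2 change -0.95, SE 0.15, adjusted p = 0.0119). Glyur004970s00043705, which also fell in underground drought against the same controls, had 3.54, 2.4998 and 2.87 FPKM with silicate and 8.55, 11.1 and 9.27 FPKM in controls (log2 change -1.42, SE 0.27, adjusted p = 0.0249). In both genes all libraries with silicate were below all controls, as their selection required. Glyur000166s00010573 (Scaffold00166, 88837 to 92773, minus strand) had 21.0, 17.1 and 18.4 FPKM with silicate and 11.3, 8.17 and 9.90 FPKM in controls (log2 change 0.88, SE 0.16, adjusted p = 0.0212). Glyur000489s00017493 (Scaffold00489, 78237 to 83305, plus strand) had 24.9, 23.6 and 30.3 FPKM with silicate and 18.6, 16.7 and 17.4 FPKM in controls (log2 change 0.55, SE 0.11, adjusted p = 0.0312). Here too the groups do not overlap, again by selection, and leaving out any 1 of the 6 libraries left 0 to 2 called genes. At 0, without control library 2 or silicate library 1, 122 and 116 genes were at an unadjusted limma p under 0.05.

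Silicate under salt-drought changed 150 of 1537 genes with several mRNAs in aerial parts, 73 higher and 77 lower (4.75% and 5.01%), beside 9.24% of all genes tested (5.81% higher and 3.43% lower). Changes of at least 1 log2 unit were called in 16 (1.04%, against 2.68%), and after rescaling 80 rose and 120 fell. Glyur000462s00025056, the gene with the largest excess underground, had 1.96, 70.0 and 12.9 FPKM with silicate and was listed at 0 in 1 library and at 0.350 and 0.0704 FPKM in the others of salt-drought without it (log2 change 3.66, SE 0.91, adjusted p = 0.0206). Glyur003152s00037491 (Scaffold03152, 9493 to 24290, minus strand) had 21.7, 91.8 and 24.1 FPKM with silicate and 2.73, 2.85 and 3.46 FPKM without (log2 change 3.23, SE 0.96, adjusted p = 0.0417). Silicate library 2 was by far the highest in both. Of the falls, Glyur004266s00042148 (Scaffold04266, 9360 to 11086, minus strand) had 36.0, 35.3 and 21.1 FPKM with silicate and 46.5, 55.4 and 85.4 FPKM without (log2 change -0.99, SE 0.30, adjusted p = 0.0428). Glyur003711s00043459 (Scaffold03711, 14669 to 16744, plus strand) had 3.996, 4.08 and 6.01 FPKM with silicate and 8.39, 9.39 and 12.4 FPKM without (log2 change -0.96, SE 0.25, adjusted p = 0.0249). All 4 lost their calls without silicate library 2, without salt-drought library 3, and with only these 2 groups in the fit, where none of the 150 genes was called (388 were at an unadjusted limma p under 0.05).

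Underground RNA moved with this comparison. The 10 underground markers summed to 842 to 9309.5 FPKM in the 3 libraries with silicate and to 4.16 to 16.5 FPKM in the 3 without, where 3 markers were at 0 in at least 1 library; none was with silicate. In unstressed seedlings, 24 of the 73 genes with several mRNAs that rose had an excess of 1 log2 unit or more underground (32.9%), against 2 of the 77 that fell and 158 of the 1537 tested (10.3%). Over all genes these were 630 of 1359 that rose (46.4%), 2 of 803 that fell (0.249%) and 3306 of 23389 tested (14.1%). Without silicate library 2, which had the most underground RNA, 32 genes were called, and without aerial drought library 3 as well 34 were, 12 higher and 22 lower. The count was also 21 without salt-drought library 3 and 96 without silicate library 3. The part of underground RNA in the remaining calls was not tested.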

How the data were processed

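RNA of 48 libraries was analysed as FPKM per gene. The authors deposited the FPKM table, for which the submitters' processing notes name TopHat2 and Cufflinks; their versions and settings and the strand handling are not given in the sources used here. Libraries were prepared by a nanopore full-length cDNA protocol (with 14 PCR cycles) and by an Illumina protocol, per the labels' protocols, and which gave the table is not stated. Gene and mRNA coordinates are those of the deposited annotation, 1-based; its build name is not given in the sources used here. Gene names are paired with identifiers in neither deposited file, so identifiers are printed. Members, classes and lists were chosen with earlier results of these data known.

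Values of log2(FPKM + 1) were fitted with limma 3.58.1 (trend and robust options) in R 4.3.3, with group means as terms, all 24 libraries of a part in a fit, or all 48 for comparisons of parts. A gene was tested if 3 or more of the fitted libraries reached 1 FPKM. The test and the coding comparison were checked on simulated data. Whole fragments could not be recovered: 42.3 to 62.9% of low values lay within 0.1 of a whole number, so depths are rough and no count model was used. Amplified fragments carried no stated molecular identifiers and are not independent. Annotation parsing used Python 3.11.15 and pandas 2.3.3.

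Genes named per comparison were, of the called ones whose groups do not overlap and whose mean reached 5 FPKM in a group, the 2 largest rises and 2 largest falls; for differences between parts, the smallest adjusted p in each direction. Others were 3 genes with most mRNAs (ties by higher mean FPKM), the 3 highest, the 2 least variable, the highest in each coding class other than overlapping coding regions, and the highest with 1 kind of difference alone. Same-numbered libraries deviated together in 1 pairwise comparison only, underground against aerial (r = 0.297, 0.325 and 0.236), where the pairing comes from the data and not from the labels. It was the only comparison of parts checked for this, and the main tests between parts do not use the pairing. The replicate block named below fits a single effect per number over all groups, so it is not a paired test. Alternatives were a pseudocount of 0.1, no filter, rescaling to a common median ratio, only the groups compared, the replicate number as a block, leaving out each library, and leaving out the 2 aerial libraries with most underground RNA. Silicate comparisons other than the 3 given were not analysed here.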

Additional observations from a re-analysis of the deposited data

Results flagged for a closer look

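Differences between the parts' stress responses were flagged by a test of the difference itself, the limma interaction. The response differed in 53 of 1580 genes with several mRNAs in salt and in 299 in salt-drought. Of all genes tested, 4.03% and 17.7% were called. After rescaling, the higher and lower underground responses numbered 30 and 32 in salt and 161 and 154 in salt-drought. The smallest adjusted p-values in salt belonged to Glyur000580s00024211, with a difference of 1.27 (underground minus aerial response, log2 scale), and Glyur000153s00013681, with -1.32. In salt-drought they belonged to Glyur001820s00032860, with 1.58, and Glyur000162s00009925, with -2.02. These 4 differences ranged over 1.19 to 1.39, -1.47 to -1.21, 1.44 to 1.72 and -2.21 to -1.84 in the alternative settings.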

How the results depend on the processing

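With a pseudocount of 0.1, without the filter or after rescaling, no total of called genes in a comparison moved by over 1.5 times, but rescaling moved counts in 1 direction: 16 in place of 29 rises in aerial drought, 210 in place of 320 in underground salt-drought, 120 in place of 77 falls for silicate under salt-drought, and 32 in place of 18 and 154 in place of 83 lower underground responses to salt and salt-drought. With only the groups compared in the fit, which leaves fewer libraries to estimate the spread, the counts were 8 for aerial drought, 14 for aerial salt, 88 for underground salt, 0 for aerial silicate without stress (148 at an unadjusted limma p under 0.05), 2 for underground silicate without stress, 0 for aerial silicate under salt-drought (388 at an unadjusted limma p under 0.05) and 11 for the salt difference between parts. With replicate numbers as a block, the count was 2 for underground silicate without stress and 985 for underground against aerial; no other count of calls moved by over 1.5 times. Without the 2 aerial libraries rich in underground RNA, 34 genes were called for aerial silicate under salt-drought. Leaving out 1 library at a time gave 914 to 941 calls for underground against aerial, 17 to 42 for aerial drought, 50 to 113 for aerial salt, 336 to 455 for aerial salt-drought, 21 to 30 for underground drought, 152 to 247 for underground salt, 300 to 407 for underground salt-drought, 0 to 12 and 0 to 2 for silicate without stress in aerial and underground parts, 21 to 126 for aerial silicate under salt-drought, and 20 to 75 and 193 to 315 for the salt and salt-drought differences between parts. Of 536 values of named genes under alternatives, 434 kept direction and call, 102 kept the direction but not the call, and 0 reversed; the causes were not tested. Depth is a rough estimate, so genes at low FPKM are the least certain.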

Other observations

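Transcript numbers of 246 of the 1630 genes skip at least 1 value in the annotation, as in Glyur000426s00022725, whose mRNAs are numbered 1 and 3. Genes with several mRNAs are neighbours on a scaffold in 88 of 29592 neighbouring pairs of genes.

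A library was listed at 0 while both others of its group held at least 10 FPKM in 9 cases over 3 genes with several mRNAs. Of these cases 7 were in Glyur001734s00030842, and the others were in Glyur001619s00026421 and Glyur000412s00023284.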
